A study of Mus musculus with 80 samples.

Results

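The cell cycle and replication genes examined in these mouse embryonic stem (ES) cells were 44 genes listed by name. The rule that selects them uses no measured value, but the list and its classes were chosen with earlier results of these data known. They were taken by symbol from 12 RNA-seq tables that together list 37890 symbols, and the entries of a symbol were summed. They fall into 18 regulators of G1, 13 replication genes and 13 mitotic genes. Of the 44, 43 were listed in all 12 tables, and Cdt1 was not listed in the tables of Sall4 het replicate 1 and Sall4 KO replicate 1. A value of 1 or more in every library listing the gene was reached by 39 members.

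The libraries came from a study of SALL4A, a zinc-finger protein of ES cells, and the TET enzymes that oxidise 5-methylcytosine. Of its 80 samples, 12 were RNA-seq libraries in 9 groups, and the other 68 were not analysed here. Sall4 het cells carried Sall4 flox/-, and Sall4 KO cells carried Sall4 delta/-, each with 2 libraries. KO plus mutant cells were Sall4 KO cells transfected with mutant SALL4A (2 libraries), and KO plus wild type cells were Sall4 KO cells transfected with wild-type SALL4A (1 library). The remaining groups had 1 library each: Sall1-/-/Sall4-/- cells (DKO), the wild-type cells paired with them, Sall1 flox/- cells (Sall1 het), Sall1 delta/- cells (Sall1 KO) and wild-type TT2 cells. The labels give the strain C57BL/6J for all replicate 1 and single libraries except TT2, 129P2/OlaHsd and line E14.1 for replicate 2, and (C57BL/6NCrlj x CBA/JNCrlj)F1 for TT2. Replicate number, strain label and unit therefore change together. The labels state neither how many clones stand behind a genotype nor whether replicates were separate cultures. The test used below fits replicate number, so its p-values measure how far group differences disagreed between replicates 1 and 2. Strain label, unit, culture and technical spread cannot be told apart in that disagreement. It is therefore not a measure of spread between clones or cultures of 1 strain.

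In a dividing cell, D cyclins with CDK4 or CDK6 and E cyclins with CDK2 phosphorylate the retinoblastoma proteins, which releases E2F factors to switch on genes for DNA synthesis. The Ink4 inhibitors (Cdkn2a, Cdkn2b, Cdkn2c) block CDK4 and CDK6, and the Cip/Kip inhibitor encoded by Cdkn1b blocks mainly CDK2. CDC6 and CDT1 load the MCM helicase at origins, and B cyclins with CDK1 start mitosis. Mouse ES cells are known for a short G1 phase, low levels of D cyclins and CDK inhibitors, and high cyclin E.

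The promoters of these classes were searched for sequence features that did not enter the choice of genes. RefSeq windows of 250 bases before to 50 bases after the gene start (GRCm38.p6) were found for 36 members, 6 of them with more than 1 window. No window was matched for Aurkb, Ccna2, Ccnd1, Ccnd2, Ccne2, Gmnn, Mcm4 and Rb1. One promoter for each class is shown, with Cdk1 added because it holds all 3 motifs searched. Each is the 180 bases before the start, on the minus strand, and capitals mark E2F-type sites (TTTCCCGC, TTTGGCGC, TTTCGCGC or TTTGCCGC), the CHR element (TTTGAA) and the CCAAT box (CCAAT), all on either strand.
Cdkn2a (chr4:89294620-89294799): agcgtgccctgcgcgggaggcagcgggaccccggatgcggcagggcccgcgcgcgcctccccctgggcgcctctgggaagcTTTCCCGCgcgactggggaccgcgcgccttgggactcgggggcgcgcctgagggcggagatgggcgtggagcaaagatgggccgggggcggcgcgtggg
Mcm6 (chr1:128359706-128359885): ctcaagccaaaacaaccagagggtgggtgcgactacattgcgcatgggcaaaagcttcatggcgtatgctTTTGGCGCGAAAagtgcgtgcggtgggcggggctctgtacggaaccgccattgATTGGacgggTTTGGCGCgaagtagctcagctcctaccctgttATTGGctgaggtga
Cdk1 (chr10:69352913-69353092): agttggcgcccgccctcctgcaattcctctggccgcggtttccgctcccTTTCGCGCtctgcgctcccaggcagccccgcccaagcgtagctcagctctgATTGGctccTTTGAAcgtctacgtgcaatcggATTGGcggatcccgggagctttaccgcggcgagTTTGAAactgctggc
Cdc20 (chr4:118437344-118437523): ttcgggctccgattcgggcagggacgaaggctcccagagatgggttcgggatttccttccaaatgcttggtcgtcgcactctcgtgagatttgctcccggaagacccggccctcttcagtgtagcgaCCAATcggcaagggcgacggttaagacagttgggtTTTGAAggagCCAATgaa

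The Cdkn2a window shown is 1 of 2 for this gene, and it held 1 E2F-type match, 99 bases before the start. In Mcm6, the matches TTTGGCGC and GCGCGAAA, which begin 110 and 106 bases before the start, overlap, and a further E2F-type match lay at 47 bases and CCAAT boxes (as ATTGG) at 57 and 14 bases. Cdk1 held CHR elements at 71 and 15 bases and an E2F-type match at 131 bases, and Cdc20 held 1 CHR element at 18 bases between CCAAT boxes at 53 and 8 bases.

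Over the whole windows, E2F-type matches were in 6 of 11 replication promoters (54.5%; Cdc6, Cdt1, Mcm3, Mcm5, Mcm6 and Mcm7) and in 5 of 14 G1 promoters (35.7%; Cdk2, Cdkn2a, Rbl1, E2f2 and E2f3). They were in 1 of 11 mitotic promoters (9.09%, Cdk1), against 2.61% of 27025 genes with a window. The CHR element, through which mitotic genes are repressed outside G2 and mitosis, was in 8 of 11 mitotic promoters (72.7%), in 4 of 14 G1 promoters (28.6%), in 1 of 11 replication promoters (9.09%) and in 20.2% of all genes. The CCAAT box was in 10 of 11 mitotic, 8 of 11 replication and 7 of 14 G1 promoters (90.9%, 72.7% and 50%), against 41.1% of all genes. With only the bases before the start, the CHR count of the mitotic genes was 5 of 11 (45.5%). The classes were not tested against each other, and exact 95% binomial intervals overlapped between classes for each motif. For E2F-type matches they were 12.8% to 64.9% (G1), 23.4% to 83.3% (replication) and 0.230% to 41.3% (mitotic). A match is a description of letters, and binding was not measured here.

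The deposited values are FPKM or RPKM, that is, fragments or reads scaled to gene length and to the number mapped, so the depth behind them is unknown and levels of different genes can be compared within a library. The median over the 12 libraries was highest for Pcna (397), the sliding clamp of DNA polymerases, followed by Cdk4 (320) and Ccnb1 (186), and lowest for Cdkn2c (0.449) and Ccnd2 (1.09). Among the MCM helicase subunits, Mcm4 had the lowest value in each of the 12 libraries and Mcm5 or Mcm7 the highest, with the highest 2.17 to 4.79 times the lowest. Cdk4 made up 98.1% to 99.4% of the summed Cdk4 and Cdk6 value, and Ccne1 77.7% to 95.9% of the summed E cyclins.

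The tables were made with different gene annotations, and their entry numbers ran from 19049 to 47834. ES cell markers listed in a table (7 or 8 of 8) were all at 1 or more in every library. Sall4 RNA was not lower in the libraries labelled KO (358 and 218, against 196 and 64.2 in Sall4 het) or DKO (109, against 17.6 in its wild type), so this RNA value does not check the deletion and the groups are named by their labels. Whether the deleted exons contribute to the value is not stated. Sall1 was at 2.27 in DKO against 13.9 in its wild type. Of 8 fibroblast markers, 6 and 4 reached 1 in the Sall4 het libraries, and 8 and 7 in the libraries labelled Sall4 KO. Their summed value was 326 and 169 in Sall4 het, 597 and 301 with the label Sall4 KO, 84.2 and 46.9 with the mutant added, 124 with wild-type SALL4A added and 291 to 467 in the DKO, its wild type and the Sall1 libraries. Vim gave 484 and 264.9 of the sums in the libraries labelled Sall4 KO. Within each replicate Vim, Col1a1, Col3a1, S100a4 and Fbn1 were higher in Sall4 KO than in Sall4 het. Thy1 (7.54 and 5.50 in Sall4 het, 1.23 and 1.33 in Sall4 KO) and Col1a2 (5.21 and 1.79 against 1.39 and 1.21) were lower, both without overlap. Tagln went in opposite directions in the replicates. The 7 primitive endoderm markers summed to between 41.5 and 320, mostly Sparc, with Afp listed at 0 or near it. Sparc was lower in both libraries labelled Sall4 KO (148 and 71.4) than in the Sall4 het library of the same replicate (219 and 101). Other markers of this list were low but higher: Gata4 was at 0.824 and 0.200 in Sall4 het and at 1.95 and 2.11 in Sall4 KO, Dab2 at 1.69 and 1.21 against 5.32 and 3.61, and Foxa2 at 0.0933 and 0.0492 against 0.377 and 0.343. Gata6 (0.641 and 0.180 against 1.28 and 0.607) overlapped. The 6 trophoblast markers summed to 84.3 and 41.4 in Sall4 het and to 137 and 39.5 in Sall4 KO, with 3 and 5 of them at 1 or more in the former and 5 and 5 in the latter. Among them Cdx2 was at 0.116 and 0.167 in Sall4 het and at 2.58 and 1.09 in Sall4 KO, and Hand1 at 2.77 and 1.25 against 7.33 and 3.23, both without overlap, while Elf5 was lower in Sall4 KO (0.294 and 0.502 against 0.838 and 2.15). The part of such cells in the results below was not tested, and in bulk RNA fewer cells of a type and less RNA per cell cannot be told apart.

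The comparison of the libraries labelled Sall4 KO with Sall4 het asks which genes differ when Sall4 is deleted. G1 regulators held the members with the largest replicated differences. The CDK inhibitor genes Cdkn2a, Cdkn2b and Cdkn1b were higher, and the D cyclin gene Ccnd1 was lower, in both libraries labelled KO. None passed the test. With limma on log2(scaled value + 1), adjusted over 15094 genes by the Benjamini-Hochberg method, 0 of the 42 members tested and 0 of all genes (0%) were called at an adjusted p under 0.05, and 1294 genes had an unadjusted p under 0.05. Of the members, 7 had an unadjusted p under 0.05, and all 7 were G1 regulators. Of the 17 G1 regulators tested, 6 were on the higher side, against 3.85% of all genes tested, and 1 on the lower side, against 4.72%. No replication gene of 12 and no mitotic gene of 13 had one. Since members and classes were chosen with earlier results of these data known, these shares are a description and not a test of the classes. Cdt1 and Cdkn2c did not enter the test.

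Cdkn2a encodes an Ink4 inhibitor and, in another reading frame, the p53-stabilising Arf protein. Outside TT2 it is listed as 1 entry, so its value does not separate RNA for the Ink4 inhibitor from RNA for Arf. Its value was 14.4 and 15.3 in Sall4 het and 34.4 and 32.8 in the libraries labelled Sall4 KO. Both KO values were above both het values, and the scaled log2 ratios were 1.24 in replicate 1 and 0.93 in replicate 2. The limma change was 1.09 ± 0.24 (log2, SE, 2 against 2 libraries; adjusted p = 0.438).

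Cdkn2b, an Ink4 inhibitor gene, lies beside it in mm9: the entries chr4:88920376-88940523 (Cdkn2a) and chr4:88952197-88956941 (Cdkn2b) are 11673 bases apart. Cdkn2b was at 2.62 and 2.25 in Sall4 het and at 7.99 and 4.54 in Sall4 KO, so the groups did not overlap (limma change 1.00 ± 0.26, adjusted p = 0.477). Cdkn1b (chr6:134870418-134875543, mm9) was at 16.7 and 9.76 in Sall4 het and at 26.1 and 36.2 in Sall4 KO, again without overlap. Its limma change was 1.16 ± 0.32 (adjusted p = 0.482), and the ratio was larger in replicate 2 (1.67) than in replicate 1 (0.65). Cdkn2c, the remaining Ink4 member, stayed under 1 in all 4 libraries (0.250 to 0.663).

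**Figure D1:**
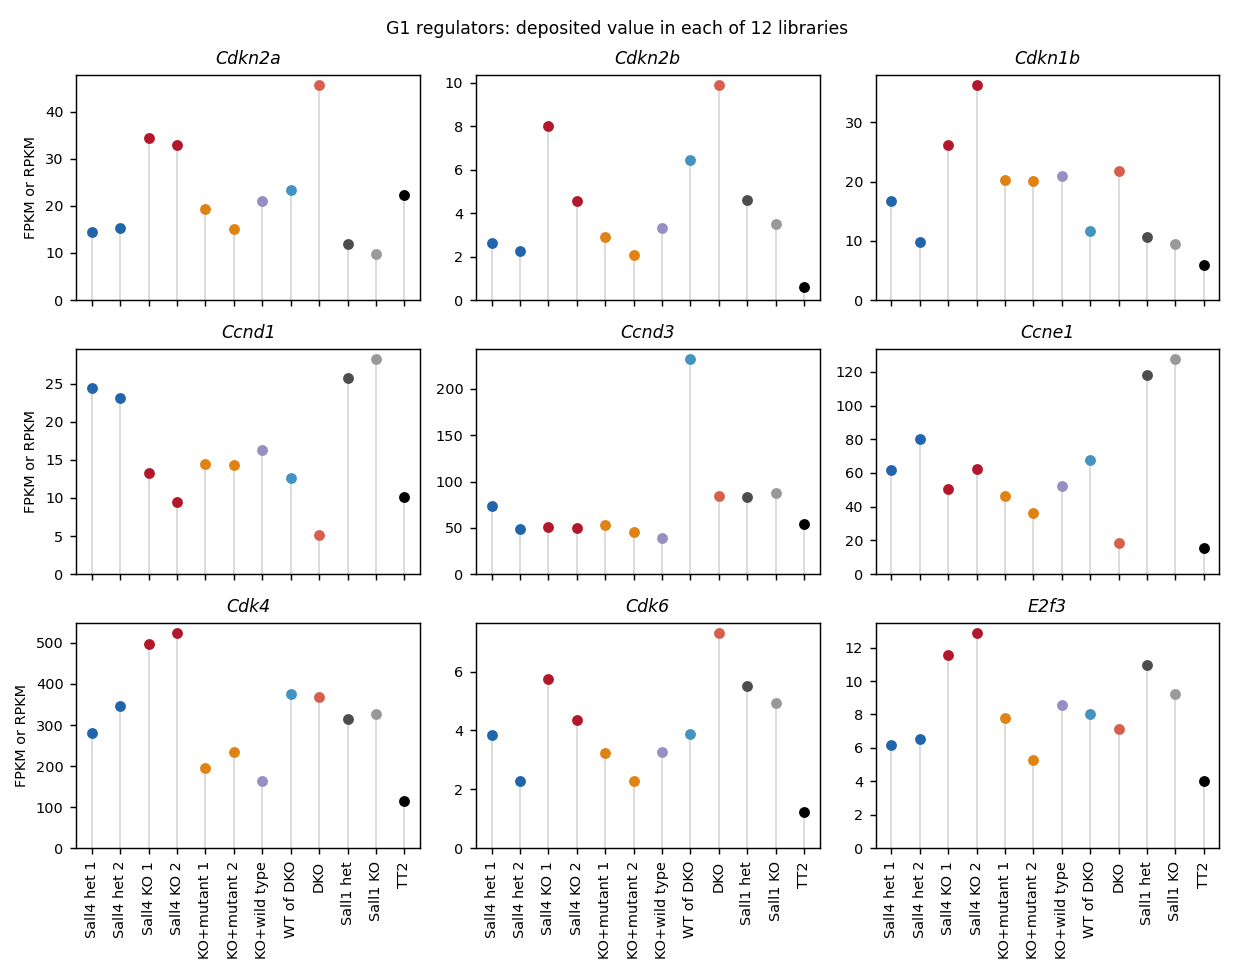
Deposited value (FPKM or RPKM, vertical axis from 0, own scale per panel) of 9 G1 regulators in each of the 12 libraries, 1 point per library and 1 color per group. The libraries labelled Sall4 KO lie above Sall4 het for Cdkn2a, Cdkn2b, Cdkn1b, Cdk4, Cdk6 and E2f3, and below it for Ccnd1.

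Among the cyclins, Ccnd1 was at 24.4 and 23.1 in Sall4 het and at 13.3 and 9.47 in Sall4 KO (limma change -1.05 ± 0.25, adjusted p = 0.455). Both KO values were below both het values. The Ccnd1 entry overlaps Oraov1 in Sall4 het replicate 1 (chr7:152101004-152125774, mm9, the same in replicate 2). In the wild type of the DKO it is shorter (chr7:152115835-152125830) and overlaps no other entry. The part of this in the add-back comparisons of Ccnd1 was not tested. Ccne1, which encodes cyclin E1, was at 62.0 and 79.9 in Sall4 het and at 50.7 and 62.1 in Sall4 KO. Those deposited values overlapped by a narrow margin, but after scaling both KO libraries were lower (limma change -0.36 ± 0.29, adjusted p = 0.805). Ccnd3 was at 73.1 and 49.0 in Sall4 het and at 51.0 and 50.0 in Sall4 KO. Ccne2 was at 5.87 and 17.2 in Sall4 het and at 10.1 and 17.9 in Sall4 KO. For Ccnd3 and Ccne2 the spread between replicates was larger than the difference between the groups.

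The share of Ccnd1 in the summed D cyclins was 24.8% and 31.4% in Sall4 het and 20.4% and 15.7% in Sall4 KO. Ccnd3 made up most of the rest in every library (66.7% to 94.0%). The Cdkn2a value was 0.589 and 0.664 times the Ccnd1 value in Sall4 het, and 2.59 and 3.47 times in Sall4 KO. These ratios do not depend on the scaling between libraries.

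**Figure D2:**
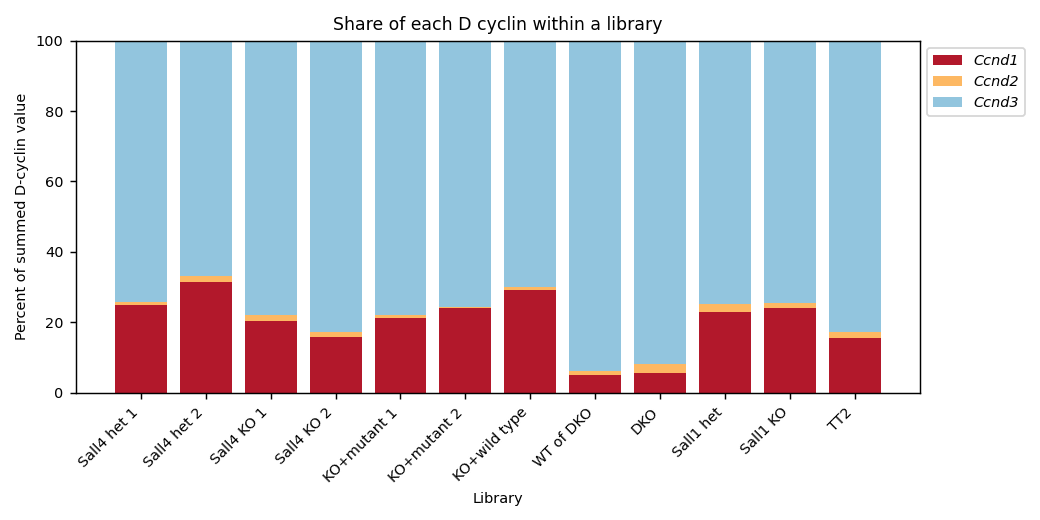
Stacked bars of the percentage that Ccnd1, Ccnd2 and Ccnd3 each contribute to the summed D-cyclin value of a library (vertical axis, 0 to 100) for the 12 libraries. Ccnd1 takes 24.8% and 31.4% in Sall4 het and 20.4% and 15.7% in the libraries labelled Sall4 KO, and it is smallest in the wild type of the DKO (5.10%) and in the DKO (5.60%).

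Cdk4, the main D-cyclin kinase in these libraries, was at 281 and 347 in Sall4 het and at 498 and 523 in Sall4 KO. The groups did not overlap, and the limma change was 0.67 ± 0.29 (adjusted p = 0.624, unadjusted p = 0.0726). In Sall4 het replicate 1 the Cdk4 entry (chr10:126500537-126507317, mm9) reaches into Tspan31, and in Sall4 het replicate 2 it ends at the same base. In the wild type of the DKO it is shorter (chr10:126500658-126504338) and overlaps no other entry. No source here says whether counting used strand. Cdk6 was at 3.85 and 2.27 in Sall4 het and at 5.76 and 4.36 in Sall4 KO. Its limma change was 0.56 ± 0.21 (adjusted p = 0.570), and it was named after its values were seen.

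E2f3, an activating E2F gene, was at 6.19 and 6.54 in Sall4 het and at 11.6 and 12.9 in Sall4 KO (limma change 0.80 ± 0.26, adjusted p = 0.524). The groups did not overlap, and the replicates differed little (0.84 and 0.76). E2f1, an activating factor as well, was at 20.9 and 8.51 in Sall4 het and at 16.4 and 19.1 in Sall4 KO, so its replicates went in opposite directions (-0.29 and 0.96). Rb1, the retinoblastoma gene, was at 5.32 and 23.0 in Sall4 het and at 13.5 and 35.5 in Sall4 KO. The groups overlapped because replicate 2 was far higher in both, and within replicates the KO library was higher (limma change 0.85 ± 0.27, adjusted p = 0.522). The Rb1 entry in the tables of Sall4 het replicate 1 and Sall4 KO replicate 1 overlaps 4 other entries, Lpar6 and Rcbtb2 among them. It has the same coordinates in Sall4 het replicate 2, where overlaps were not counted. Reads of these genes cannot be told apart from Rb1 without strand.

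The replication genes differed less. Cdc6, the origin-licensing factor, ranked first in this class by the smaller of its 2 replicate ratios (-0.38 and -0.45). It was at 20.8 and 23.0 in Sall4 het and at 15.3 and 17.9 in Sall4 KO (limma change -0.41 ± 0.22, adjusted p = 0.690). Both KO values were below both het values. Mcm7 was at 176 and 174 in Sall4 het and at 306 and 209 in Sall4 KO, with a ratio of 0.84 in replicate 1 and 0.14 in replicate 2. Its adjusted p in limma was 0.733, and its entry holds the Mir106b locus in both annotations. In Sall4 het replicate 1 the Mcm7 entry (chr5:138602298-138628679, mm9) also overlaps Ap4m1, Cops6 and Taf6. In the wild type of the DKO it is shorter (chr5:138605816-138613090) and overlaps Mir106b, Mir25 and Mir93 only. The part of this in the Mcm7 values was not tested. Mcm3 was at 97.8 and 94.1 in Sall4 het and at 105 and 118 in Sall4 KO, a limma change of 0.17 ± 0.25 (adjusted p = 0.916). Rrm2, a ribonucleotide reductase subunit, was at 142 and 69.3 in Sall4 het and at 146 and 113 in Sall4 KO. For Mcm3 and Rrm2 the change was of the size of its error or close to it. The ratios of the 12 replication genes tested ran from -0.41 (Cdc6) to 0.49 (Mcm7).

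The mitotic genes lay in a similar band, from -0.34 (Birc5) to 0.38 (Bub1). The spindle checkpoint kinase gene Bub1 was at 41.9 and 33.3 in Sall4 het and at 53.6 and 47.2 in Sall4 KO (limma change 0.38 ± 0.29, adjusted p = 0.793). Mki67, which encodes the proliferation antigen Ki-67, was at 10.9 and 7.57 in Sall4 het and at 12.2 and 12.7 in Sall4 KO (adjusted p in limma 0.721). Cdc20, an activator of the anaphase-promoting complex, was at 126 and 112 in Sall4 het and at 145 and 138 in Sall4 KO (adjusted p in limma 0.884). In these 3 genes both KO values were above both het values, yet none differed beyond the replicate spread in the test. Birc5 (survivin) was at 134 and 204 in Sall4 het and at 113 and 160 in Sall4 KO, and these groups overlapped.

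By class, the median change was 0.33 for the 17 G1 regulators, 0.090 for the 12 replication genes and 0.12 for the 13 mitotic genes tested, against -0.02 for all genes tested. After scaling, both KO libraries lay above both het libraries for 14 members, 7 of them G1 regulators, against 16.5% of all genes tested. They lay below for 3 members, Ccnd1, Ccne1 and Cdc6, against 16.2%. The G1 median was unstable: it was 0.15 without Sall4 KO replicate 2, 0.50 without Sall4 KO replicate 1 and 0.55 without Sall4 het replicate 1. Past 2-fold, Cdkn2a, Cdkn2b and Rb1 were higher in replicate 1 (4.07% of all genes measured) and no member was lower (4.51%). In replicate 2, Cdkn1b and E2f1 were higher (5.74%) and Ccnd1 lower (7.8%). With a pseudocount of 0.1 in place of 1, 3 members were past 2-fold on the higher side in replicate 2.

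**Figure D3:**
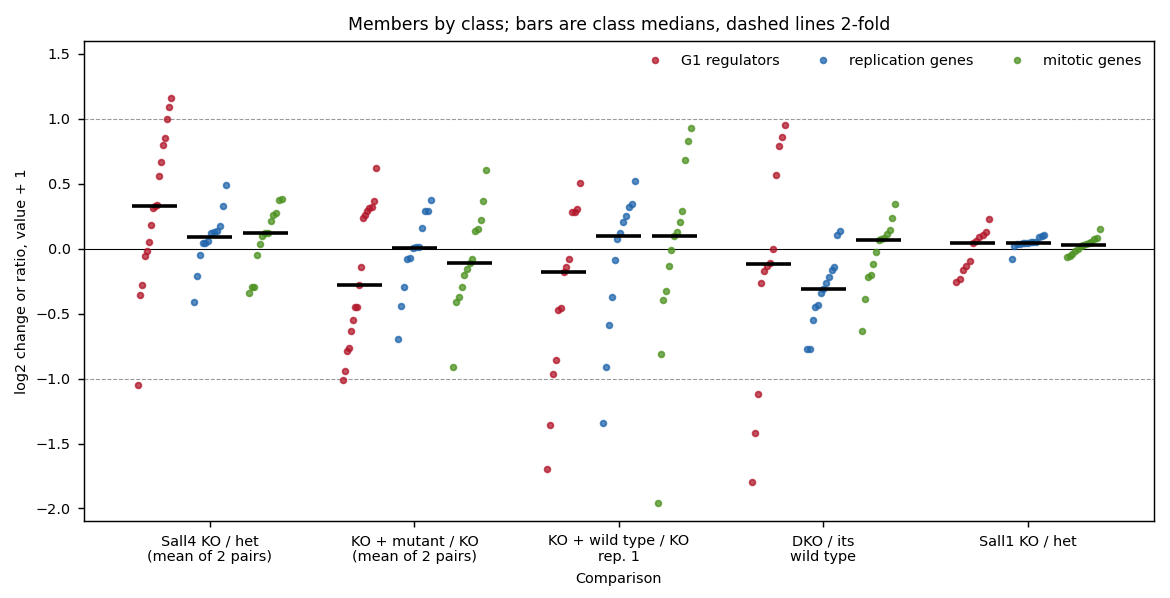
Log2 change (Sall4 KO and KO plus mutant, mean of 2 pairs) or log2 ratio (other comparisons, 1 pair, members at 5 or more in either library) of the members, by class, with black bars at the class medians and dashed lines at 2-fold. In Sall4 KO against Sall4 het the class medians are 0.33, 0.090 and 0.12, and in Sall1 KO against Sall1 het the 37 members shown lie between -0.25 and 0.22.

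The KO plus mutant libraries show the genes in Sall4 KO cells given a mutant SALL4A. This comparison shares its Sall4 KO libraries with the one above, so the values of all 3 groups are given side by side and no likeness between the comparisons is read from them. None of the 42 members tested and 0 of 11636 genes (0%) were called by limma, with 1137 genes at an unadjusted p under 0.05. Of the members, 5 had an unadjusted p under 0.05, all lower: Rb1, Cdk4, Cdkn2b, Ccne2 and Cdkn2a, against 4.69% of all genes on that side and 5.08% on the higher side. All 5 are G1 regulators. Past 2-fold, 5 members were lower in replicate 1 (Cdk1, Tyms, Rb1, Ccne2 and Cdk4; 13.3% of all genes measured) and none was higher (7.51%). In replicate 2 no member was past 2-fold, against 14.5% higher and 2.06% lower among all genes.

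Cdkn2a was at 19.4 and 15.2 in KO plus mutant, below the 34.4 and 32.8 of Sall4 KO, and as deposited replicate 2 lay between the 14.4 and 15.3 of Sall4 het (limma change -0.63 ± 0.23, adjusted p = 0.485). Cdkn2b was at 2.91 and 2.05, below both Sall4 KO values (limma change -0.79 ± 0.25, adjusted p = 0.471). Cdkn1b was at 20.3 and 20.2, under both Sall4 KO values and above both Sall4 het values, with a limma change of -0.28 ± 0.31 against KO (adjusted p = 0.760). Ccnd1 was at 14.4 and 14.3, above both Sall4 KO values and below both Sall4 het values (limma change 0.62 ± 0.25, adjusted p = 0.522).

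Cdk4 was at 196 and 233, below both Sall4 KO values and, as deposited, below both Sall4 het values, though not after scaling (limma change -0.94 ± 0.32 against KO, adjusted p = 0.481). The Cdk4 entry differs between annotations, as given above, and the part of this in the difference was not tested. Rb1 was at 4.29 and 15.5 (limma change -1.01 ± 0.27, adjusted p = 0.421), and Ccne2 at 3.44 and 10.2 (limma change -0.76 ± 0.29, adjusted p = 0.501). For both, the replicates were far apart in every group and the mutant library was the lower within each replicate.

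The class medians were -0.28 for the G1 regulators, 0.0079 for the replication genes and -0.11 for the mitotic genes, against -0.02 for all genes. After scaling, both mutant libraries lay above both KO libraries for 11 members (22.8% of all genes tested) and below for 12 (21.7%). The former were Ccnd1, Ccnd3, Cdk2, Rbl1, E2f1, E2f2, Gmnn, Mcm4, Mcm6, Ccnb2 and Mki67. The latter were Ccnd2, Cdk4, Cdk6, Cdkn1b, Cdkn2a, Cdkn2b, E2f3, Cdc6, Mcm7, Tyms, Aurkb and Bub1. Since the KO libraries are shared with the comparison above, no reversal is read from these lists. With values as deposited, the median of all genes was -0.28 and the G1 median -0.56, so levels in this comparison are read relative to that shift. Without mutant replicate 2, 764 genes were called and 1 member with them, Cdk1 (limma change -1.79, adjusted p = 0.0257, the lone mutant library being assumed to vary like the other groups). Without mutant replicate 1, 282 genes and no member were called.

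Cdk1, the mitotic kinase gene, was at 57.1 and 175 in the mutant libraries, against 257 and 215 in Sall4 KO. The low value was replicate 1 alone, with a ratio of -1.90 there and 0.08 in replicate 2. Tyms, which encodes thymidylate synthase, was at 32.1 and 50.3 in the mutant libraries, against 91.7 and 72.8 in Sall4 KO, with a larger difference in replicate 1 (-1.24) than in replicate 2 (-0.15).

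These values moved with the kind of table. The table of KO plus mutant replicate 1 has 23234 entries, and that of Sall4 KO replicate 1 has 37883. In the 6 gene tables of 23234 or 23235 entries Cdk1 lay between 55.5 and 88.4, and in the 5 other gene tables between 175 and 257. Rb1 lay between 2.40 and 4.29 in the former and between 5.32 and 35.5 in the latter, and Tyms between 30.1 and 47.5 against 50.3 to 94.0. Of the 44 members, 4 (Cdk1, Rb1, Mcm5 and Tyms) were lower in all 6 tables than in all 5 others, 2 (Mcm6 and Mki67) were higher, and 38 overlapped. These are deposited values, not scaled between libraries. The share over all genes was not counted, so the counts do not set the members apart from other genes. The part of the annotation in the add-back differences of replicate 1 was not tested, and it cannot be told apart from the transfection in that pair.

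**Figure D4:**
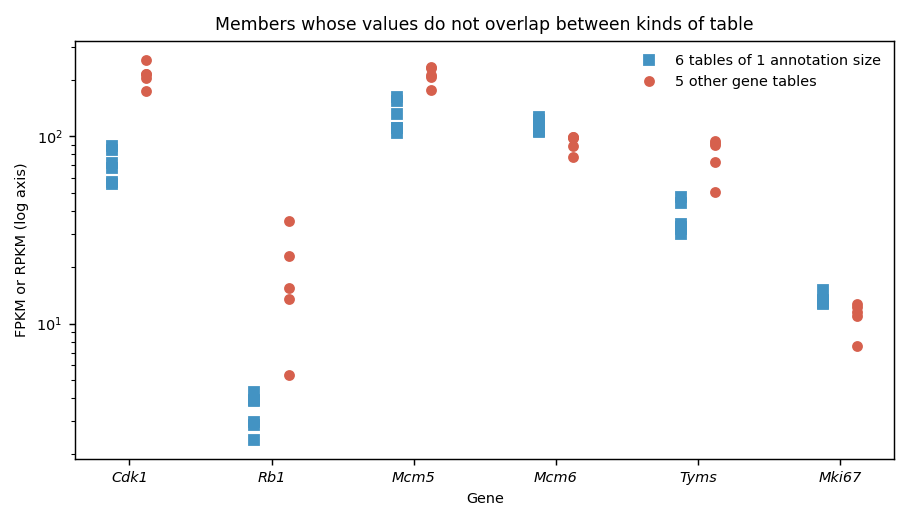
Deposited values (FPKM or RPKM, log axis) of the 6 members whose values do not overlap between the 6 gene tables of 23234 or 23235 entries (squares) and the 5 other gene tables (circles), 1 symbol per library. Cdk1 lies between 55.5 and 88.4 in the former and between 175 and 257 in the latter.

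KO plus wild type, with 1 library, was set against Sall4 KO replicate 1, and the difference has no replicate check. Its 2 tables again differ in annotation. Past 2-fold, 4 members were lower (Cdk1, Rb1, Cdk4 and Tyms; 14.1% of all genes measured) and none was higher (8.55%). Cdk4 was at 165 in this library against 498 in Sall4 KO replicate 1, a log2 ratio of -1.36. Cdk1 was at 55.5 (ratio -1.95), Rb1 at 2.89 (-1.70) and Tyms at 30.1 (-1.34), 3 of the genes whose level went with the kind of table. The Cdk4 entry differs between annotations as well, as given above, and the part of this in the Cdk4 ratio was not tested. With values as deposited the number of members lower was 8 of 38, against 18.9% of all genes measured. The median of all genes was -0.25 there and -0.03 after scaling.

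The inhibitor genes in KO plus wild type were at 21.0 (Cdkn2a), 3.33 (Cdkn2b) and 20.9 (Cdkn1b), with ratios of -0.46, -0.86 and -0.08 to Sall4 KO replicate 1. Ccnd1 was at 16.4 (ratio 0.50) and E2f3 at 8.57 (ratio -0.18). None of these 5 ratios reached 2-fold. The Ccnd1 share of the D cyclins was 29.3%, against 20.4% in Sall4 KO replicate 1. The class medians were -0.18, 0.096 and 0.098 for G1, replication and mitotic genes.

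The DKO library, which lacks both Sall1 and Sall4 by its label, was set against its wild type in tables of 1 annotation, also without replicates. The members past 2-fold were 3 G1 cyclins, all lower in the DKO: 3 of 12 G1 regulators measured, against 3.67% of all genes. No replication or mitotic gene was past 2-fold, and no member was higher (4.83%). Ccne1 was at 67.6 in the wild type and 18.4 in the DKO (log2 ratio -1.80), and Ccnd3 at 232 and 84.8 (-1.42). The wild-type Ccnd3 value was the highest of the 12 libraries, the others running from 39.1 to 87.7. Ccnd1 was at 12.6 and 5.17 (-1.12), and 5.17 was its lowest value in any library. Since Ccnd1 and Ccnd3 were lower by like amounts, the Ccnd1 share of the D cyclins was 5.10% and 5.60%.

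Of the 4 CDK inhibitor genes among the members, 3 were higher in the DKO by less than 2-fold. Cdkn2c was at 1.34 in the wild type and 1.05 in the DKO. Cdkn2a was at 23.4 in the wild type and 45.6 in the DKO (0.96), Cdkn1b at 11.7 and 21.7 (0.86) and Cdkn2b at 6.46 and 9.88 (0.57). Cdk6 was at 3.87 and 7.30 (0.79), while Cdk4 was at 377 and 369 (-0.01) and E2f3 at 8.04 and 7.12 (-0.13). Cdkn2a was 1.86 times Ccnd1 in the wild type and 8.82 times in the DKO, the widest ratio of the 12 libraries.

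Of the 13 replication genes, 11 were lower in the DKO, with a class median of -0.31 against -0.01 for all genes measured. The share of all genes lower by any amount was not counted, and this is 1 pair of libraries. Among 34 further replication genes outside the 44 in this pair, 22 were lower and 12 higher, with a median of -0.11. Cdc6 (15.1 and 8.27, ratio -0.77) and Rrm2 (179 and 103, ratio -0.77) were at the low end and Tyms (43.96 and 47.5, ratio 0.13) at the high end. The mitotic genes had a median of 0.07 and ran from -0.63 (Bub1b) to 0.34 (Ccnb2). Mki67 was at 12.8 in the wild type and 13.2 in the DKO. Across the 5 scaling, pseudocount and filter settings, the members past 2-fold remained 3 in number. Trophoblast markers moved with this pair: 3 of 6 were at 1 or more in both libraries, and their summed value was 11.7 in the wild type and 140 in the DKO, mostly Krt8 and Krt18, while the defining markers Cdx2 and Elf5 were under 0.1 in both. Fibroblast markers summed to 467 and 448. The part of such cells in these ratios was not tested.

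**Figure D5:**
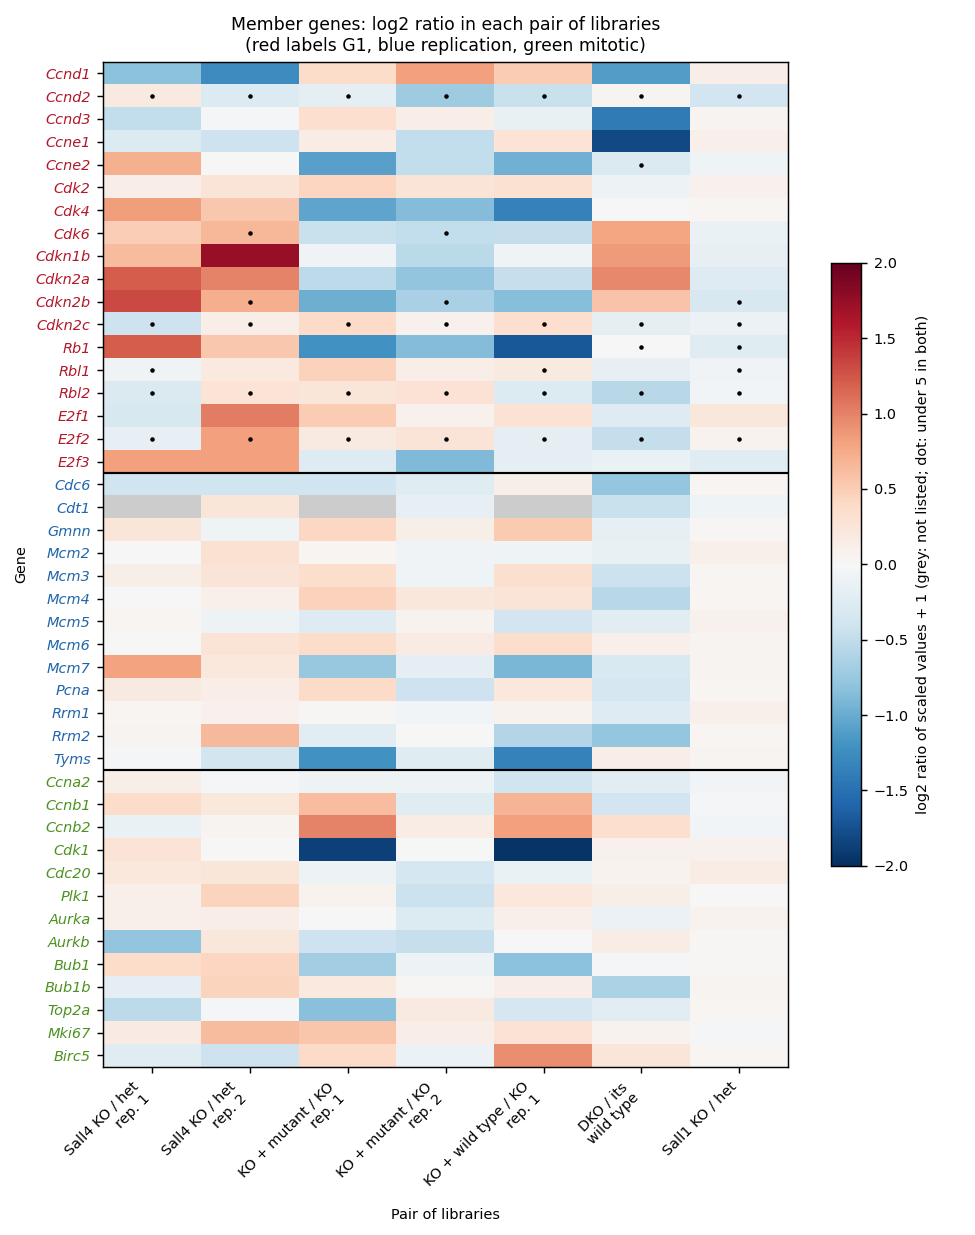
Log2 ratio of scaled values + 1 (color, from -2 in blue to 2 in red) of the 44 members in 7 pairs of libraries, G1 regulators on top, then replication and mitotic genes. Grey marks a gene not listed in a table and a dot a gene under 5 in both libraries. In DKO against its wild type the darkest cells are Ccne1 (-1.80), Ccnd3 (-1.42) and Ccnd1 (-1.12), and the Sall1 column is pale throughout.

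Sall1 KO against Sall1 het, in tables of 1 annotation, showed no member past 2-fold in either direction, against 0.624% of all genes on the higher and 0.722% on the lower side. The 37 members at 5 or more in either library ran from -0.25 (Cdkn2a) to 0.22 (E2f1). Cdkn2a was at 11.8 in Sall1 het and 9.80 in Sall1 KO, and Cdkn1b at 10.7 and 9.41. Ccnd1 was at 25.7 and 28.2, and Ccne1 at 118 and 127, the highest Ccne1 values of the 12 libraries. The class medians were 0.04 (G1), 0.05 (replication) and 0.02 (mitotic). Of the 13 replication genes, 12 were higher and 1 lower, so a count on 1 side also arose here at a median near that of all genes (0.003). A lone pair gives no error, so the lack of ratios past 2-fold does not show equal expression. Sall1 itself was at 21.8 in Sall1 het and 13.3 in Sall1 KO.

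Genes of the same processes outside the 44 were counted as well: 79 genes, of which 75 were tested in Sall4 KO against Sall4 het. None was called by limma. Of these, 2 had an unadjusted p under 0.05 on the higher side (Cdkn1c and Ccnf, against 3.85% of all genes tested) and 1 on the lower side (Pttg1, against 4.72%), so both shares were below the background. In KO plus mutant against Sall4 KO the counts were 3 and 3 of 75, against 5.08% and 4.69%. The class medians in Sall4 KO against Sall4 het were 0.11 (G1), -0.09 (replication) and 0.15 (mitotic), beside 0.33, 0.090 and 0.12 for the members. Cdkn1c, the imprinted Cip/Kip inhibitor gene, was at 5.76 and 4.42 in Sall4 het and at 12.9 and 9.75 in Sall4 KO (limma change 0.97 ± 0.22, adjusted p = 0.438). In the mutant add-back it was at 3.34 and 1.78 (limma change -1.57 ± 0.22, adjusted p = 0.356), and in the DKO pair at 3.26 in the wild type and 13.8 in the DKO, past 2-fold (1.82). Cdkn1c was thus higher in both Sall4 KO libraries than in both het libraries, and both mutant libraries were below both het libraries.

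Cdkn1a, the Cip/Kip gene best known as a p53 target, was at 23.7 and 25.5 in Sall4 het and at 33.8 and 36.2 in Sall4 KO (limma change 0.45 ± 0.23, adjusted p = 0.672). It was at 101 and 100.1 in the wild type and the DKO. Pttg1 (securin), an inhibitor of separase, was at 55.4 and 74.7 in Sall4 het and at 20.9 and 16.4 in Sall4 KO (limma change -1.78 ± 0.35, adjusted p = 0.425). Both KO values were below both het values, and in the DKO pair Pttg1 was at 38.1 and 16.9, past 2-fold (-1.11). Pold2, a subunit of DNA polymerase delta, was at 241 and 251 in Sall4 het and at 115 and 136 in Sall4 KO (limma change -1.01 ± 0.42, adjusted p = 0.609), without overlap.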

How the data were processed

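Of the study's samples, the 12 RNA-seq libraries of mouse ES cells were used. Per the file headers, the authors deposited FPKM for 9 libraries (a gene table for 8 and a transcript table for TT2) and RPKM for 3 (replicate 2). The submitters' processing notes name TopHat, Bowtie 0.12.7, SAMtools, MACS 1.4.2 and mm9, without saying which made which file, and the counting settings and annotation are not given in the sources used here. Annotations differ between tables, which can change the value of a gene. Depth is unknown, so no counting interval is given.

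The 44 members, their classes, the wider lists and the markers were chosen with earlier results of these data known. Entries of a symbol were summed. In the 3 groups with 2 libraries, values were divided by median-ratio factors and log2(value + 1) was fitted with limma 3.58.1 (R 4.3.3), group plus replicate number, with a trend, on genes at 1 or more in at least 2 libraries and listed in all libraries compared. P-values are two-sided and adjusted over all genes (Benjamini-Hochberg, threshold 0.05). The replicate number stayed in the fit because it marks unit and strain label. Deviations of same-numbered libraries from their group means correlated at r = 0.578 (het and KO), 0.104 (het and mutant) and 0.0632 (KO and mutant) over 11636 genes (genes are not independent). The fit was tested on simulated data in which all groups shared the same replicate shift. It was not tested for shifts that differ between groups, as the low correlations with the mutant libraries show here.

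Single pairs were scaled by the median ratio and given as log2 ratios of value + 1, with no test, for genes at 5 or more in either library and a limit of 2-fold. Ratios were formed within 1 unit, and only the add-back pairs cross annotations. Values in every library are given for members past 2-fold in any pair and for up to 4 members of each class with the largest change of 1 sign in both replicates of Sall4 KO against Sall4 het. Promoters come from RefSeq (GRCm38.p6). Alternatives were other scalings, a pseudocount of 0.1, no filter, no replicate block, only the groups compared, and leaving out each library.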

Additional observations from a re-analysis of the deposited data

How the results depend on the processing

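No replicated comparison called a member under the scalings, pseudocounts, filters, group choices or left-out libraries tried, except Cdk1 without mutant replicate 2. No paired value changed a call: with no replicate block, 0 genes were called in either comparison, and 5 and 2 members in place of 7 and 5 had an unadjusted p under 0.05 in limma. Leaving out 1 library at a time, 0 genes were called in Sall4 KO against Sall4 het, and 0 to 764 in KO plus mutant against Sall4 KO. The G1 class median then ran from 0.15 to 0.55 and from -0.47 to -0.064. A class median was taken as moved when it shifted by more than 0.12 (log2), the SD between replicates pooled over 6 class medians, a pooling chosen after the data were seen. Values as deposited gave medians of -0.56 (G1), -0.30 (replication) and -0.42 (mitotic) in KO plus mutant, and of -0.39, -0.13 and -0.13 in KO plus wild type, where 8 members were then lower at 2-fold. Upper quartile scaling there gave 1 member higher (Birc5). With no filter on low values the G1 median of the Sall1 pair was -0.082. Sign changes among named genes were E2f1 (-0.22 to 0.88 over the left-out libraries, below 0 without replicate 2 of either group), Rrm2 (-0.0097 to 0.67, below 0 without Sall4 het replicate 2) and, against KO, Cdkn1b in the mutant (-0.63 to 0.063, above 0 without Sall4 KO replicate 2). The cause of each was not tested. Counts were taken as moved beyond 1.5 times. The remaining 139 values of class medians and counts stayed within these limits, among them 6 members lower in KO plus wild type with a pseudocount of 0.1, in place of 4. Depth is unknown, so what it limits cannot be stated.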

Other observations

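The TT2 library, in no comparison, is the only one given by transcript. Of its Cdkn2a value of 22.2 FPKM, 22.0 FPKM came from the transcript spanning chr4:88920376-88940523 (mm9), and 0.260 FPKM from the shorter one, chr4:88920376-88928096. Cdkn2a lies on the minus strand, so the longer transcript starts further upstream. Neither transcript was assigned to the Ink4 inhibitor or to Arf here. Calling Cdkn2a a CDK inhibitor gene therefore does not say that RNA for the Ink4 inhibitor was measured. The other libraries list Cdkn2a as 1 entry per gene, so their values do not separate these transcripts. TT2 had the lowest value of the 12 libraries in 36 of the 44 members: 11 of 18 G1 regulators, 12 of 13 replication genes and 13 of 13 mitotic genes. These values were not scaled between libraries, and the share over all genes was not counted. The count is therefore not read as a trait of cell cycle genes. The Tyms value of TT2 (69.5) was above that of all 6 gene tables of 23234 or 23235 entries.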
